A study of Mus musculus with 3 samples.

Results

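Car2 and Car14 are the 2 carbonic anhydrase genes in a panel of 296 genes whose RNA molecules were counted in place, by MERFISH, in sagittal sections of wild-type mouse embryos. They were chosen from measured values: their levels in these sections, the opposite direction of their differences between stages and their overlap with Bpgm and neural cells. Those values are therefore given below as a description, with no test. The E15.5 group was 1 section of 1 embryo, and the E9.5 group was 2 sections from different embryos, called section 1 and section 2 here. The tissue label of each is whole embryo, no treatment is given, and the E15.5 section has no replicate. MERFISH reads each gene as a code built up over rounds of fluorescence imaging, and 19 blank codes that belong to no gene show how often a code is read by error.

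Carbonic anhydrases speed up the reversible conversion of carbon dioxide and water into bicarbonate and a proton. Car2 is the abundant enzyme of the cytosol, known from red blood cells, kidney, bone-resorbing cells and glia, where it serves gas transport and the movement of acid and ions. Car14 is anchored in the cell membrane with its catalytic part outside the cell, and is known from brain, retina, kidney and muscle. Bpgm, the enzyme that makes the red-cell metabolite which lowers the oxygen affinity of haemoglobin, is the only one of 20 listed erythroid genes in the panel. One marker is too few to name a cell type, so cells with at least 2 Bpgm counts are called Bpgm cells and not red cells. None of 13 listed bicarbonate transport genes was in the panel, and of 16 listed carbonic anhydrases these 2 were.

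Cells with at least 10 panel counts were used, which left 195915 cells in the E15.5 section, 830 in E9.5 section 1 and 6334 in E9.5 section 2, with 21227345, 68572 and 1034730 counts. The median cell held 84 counts at E15.5, against 61 and 128 counts in E9.5 sections 1 and 2. No cell identifier was shared between sections. In 0.184% of cells at E15.5, against 37.7% in E9.5 section 1 and 30.9% in section 2, the cell and its 50 nearest neighbours together held Gnas, a widely used G protein gene, at less than 0.5 times the median of E9.5 section 2, and results that rest on these low-Gnas areas are given with and without them. The files name genes by symbol and give no genome positions.

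Car2 was the higher of the pair at E15.5 and Car14 the higher at E9.5. Car2 had 135564 counts in the E15.5 section, or 6386 per 1000000 panel counts, written CPM from here on (95% Poisson interval 6352 to 6420). It had 50 counts in E9.5 section 1, or 729 CPM (541 to 961), and 1265 in section 2, or 1223 CPM (1156 to 1292). The E15.5 level was thus above both E9.5 sections, at 8.76 times section 1 and 5.22 times section 2, and the E9.5 sections did not overlap it or each other within counting error. The E9.5 mean was 976 ± 349 CPM (SD, n = 2), and the log2 difference, E15.5 over this mean, was 2.71.

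Car14 had 4188 counts in the E15.5 section, or 197 CPM (191 to 203). It had 308 counts in E9.5 section 1, or 4492 CPM (4004 to 5022), and 2144 in section 2, or 2072 CPM (1985 to 2162). The E15.5 level was below both E9.5 sections, which stood at 22.8 and 10.5 times its value. The E9.5 mean was 3282 ± 1711 CPM (SD, n = 2) and the log2 difference was -4.06. Between the E9.5 sections themselves the Car14 level differed by more than counting error, with section 1 above section 2. The sections also differed in make-up. Cells with heart muscle markers were 0.12% of kept cells in section 1 and 8.7% in section 2. How far make-up enters the Car14 levels was not tested.

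By size, 93 of 296 panel genes (31.4%) differed by at least 2-fold in the same direction from each E9.5 section. Of these, 47 were higher at E15.5, Car2 among them at rank 12 from the top, and 46 were lower, Car14 among them at rank 3 from the bottom. The rule that chose the pair used this contrast, so nothing is read from the counts, and the median gene had a log2 difference of -0.17. Bpgm had 2953 CPM at E15.5, against 3340 and 2388 in E9.5 sections 1 and 2, and lay inside the E9.5 range. Of the other listed genes of hypoxia and glucose, the glucose transporter Slc2a1 had 213 CPM at E15.5, against 3456 and 1580, and passed the size rule as lower. Epas1, an oxygen-regulated transcription factor, had 1939 CPM at E15.5, against 6504 and 2026, and did not pass it. In counts summed over a section, fewer cells of a type and less RNA per cell cannot be told apart. Each stage was a separate set of sections, so anything else that differed between these sets cannot be told apart from stage.

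Only the E15.5 value of Car14 lay within the range of the blank codes. Car2 stood at 40.1 times the mean blank code at E15.5, against 3.05 and 8.20 times in E9.5 sections 1 and 2. No blank code exceeded it in any section, though in section 1 it was 1.06 times the highest one, with 50 counts against 47. Car14 stood at 1.24 times the mean blank code at E15.5, against 18.8 and 13.9 times in the E9.5 sections. At E15.5, 6 of the 19 blank codes had more counts than Car14, and the highest had 449 CPM. With the mean blank code subtracted, the Car14 difference was -6.37 on the log2 scale and the Car2 difference 2.99, so the size of the Car14 difference rests on how the blank codes are treated while its direction does not.

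**Figure D1:**
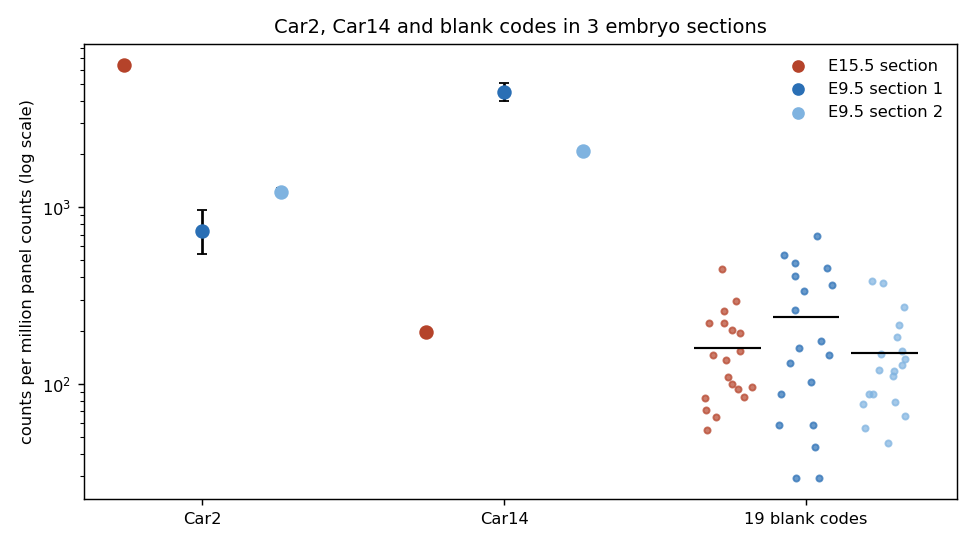
CPM of Car2 and Car14 and of the 19 blank codes (log axis) in the E15.5 section and the 2 E9.5 sections. Bars on the genes are 95% Poisson intervals, shown where wider than the point, and black lines are blank means. Car14 at E15.5 (197) lies among the blank codes, whose highest is 449, and Car2 at E15.5 (6386) lies above all others.

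The counts of Car2 were held by few cells at E15.5 and spread thinly at E9.5. A cell with at least 3 counts of a gene is called a holding cell here. For Car2 they were 15197 cells at E15.5, or 7.76% of kept cells (exact 95% interval 7.64 to 7.88%), against 1 cell in E9.5 section 1 (0.120%) and 107 in section 2 (1.69%, 1.39 to 2.04%). They held 83.5% of the Car2 counts at E15.5, against 8.0% and 36.4% in E9.5 sections 1 and 2. The highest cell had 71 Car2 counts at E15.5, against 4 and 13. At least 1 Car2 count was seen in 17.1% of E15.5 cells, against 5.30% and 11.98% of cells in E9.5 sections 1 and 2. With each cell thinned to 50 counts, which left out 59914, 336 and 1261 shallower cells, these shares were 9.68% at E15.5 and 3.24% and 3.25% at E9.5, and the E9.5 shares lay within each other's counting error.

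Car14 showed the reverse picture. Holding cells numbered 31 at E15.5 (0.0158%, 0.0107 to 0.0225%), against 25 in E9.5 section 1 (3.01%, 1.96 to 4.41%) and 143 in section 2 (2.26%, 1.91 to 2.65%). The largest number of cells with at least 3 counts of any one blank code was 104 at E15.5, against 0 and 2 at E9.5. The E15.5 Car14-holding cells were thus fewer than those of that blank code, and the E9.5 ones were not. At least 1 Car14 count was seen in 2.02% of E15.5 cells, against 25.7% and 23.3% of cells in E9.5 sections 1 and 2. Thinned to 50 counts the shares were 0.998% at E15.5 and 21.3% and 10.3% in the E9.5 sections, which then differed from each other as their levels did.

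At E15.5 most Car2 lay in 1 continuous area. Areas were drawn after the maps had been seen, by joining cells whose own counts together with those of the 50 nearest cells reached 5 times the section level. The areas are chosen on Car2 itself, so their Car2 level is a description. The E15.5 area measured 2906 by 2311 micrometres and took in 21939 cells, 11.2% of those kept. It held 118101 Car2 counts, 87.1% of the section's total, at 105875 CPM (105272 to 106481). Within it 89.6% of cells had at least 1 Car2 count and 66.1% were holding cells, with a median of 41 panel counts per cell.

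Outside the area, 173976 cells held 17463 Car2 counts, or 868 CPM (856 to 881). That value lies between the E9.5 sections, which had 729 and 1223 CPM, and 0.399% of the cells outside were holding cells. Without the area, the log2 difference of Car2, E15.5 over E9.5, was -0.17, against 2.71 with it. The area is drawn on Car2 and holds 87.1% of its E15.5 counts, so leaving it out lowers the Car2 difference by construction. Nothing was left out of the E9.5 sections here. What the values show is where the E15.5 excess of Car2 lay. The Car14 difference was -4.07 without the area, close to the -4.06 with it.

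**Figure D2:**
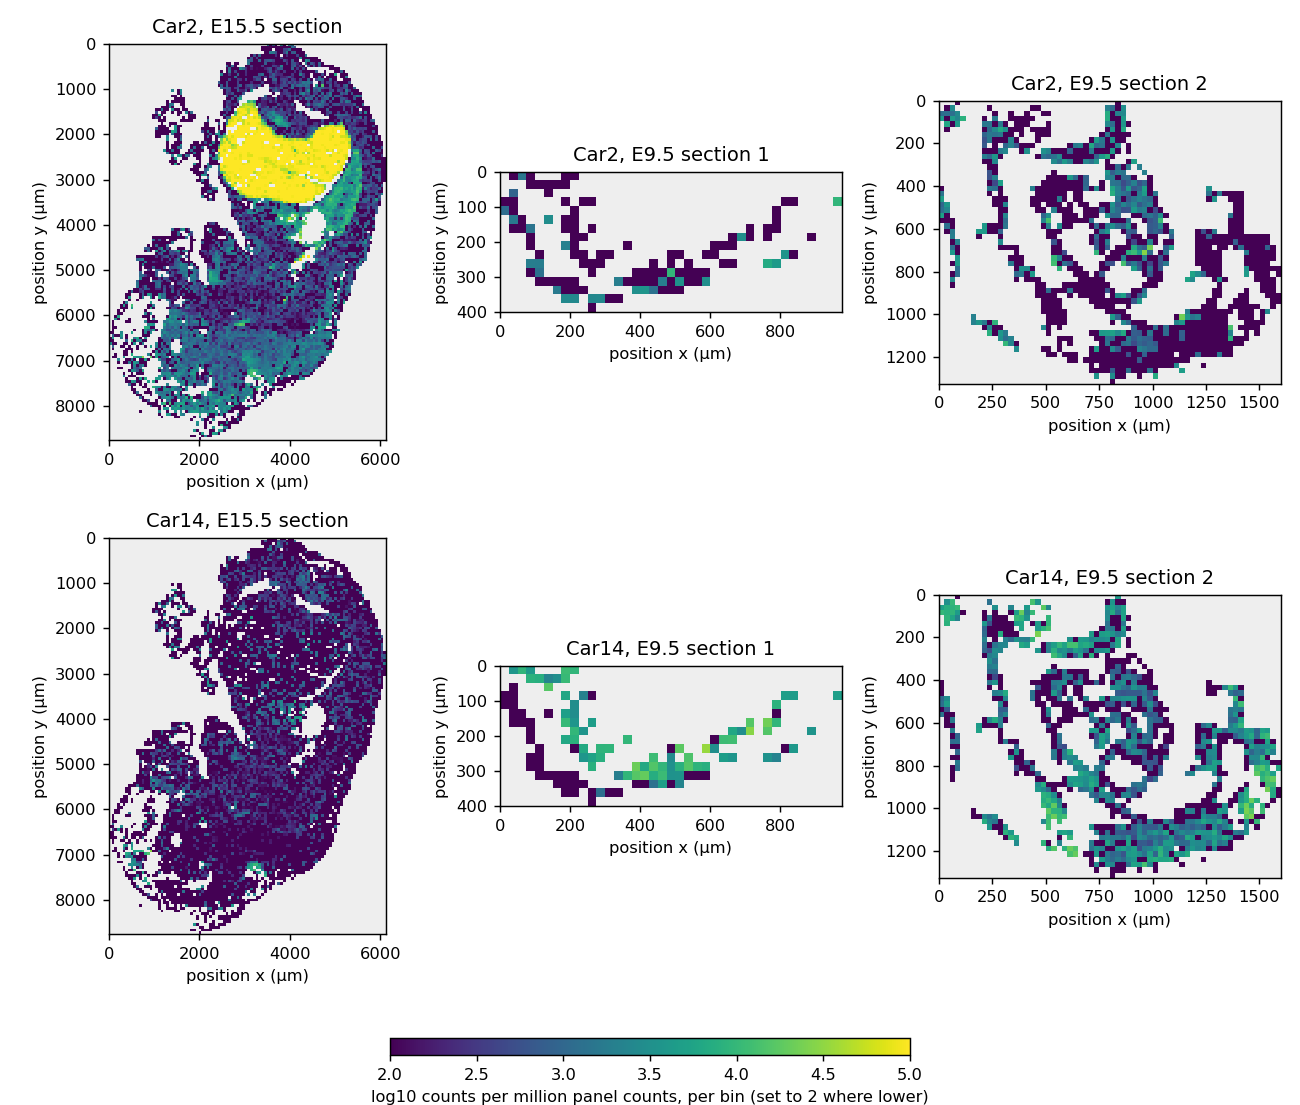
Car2 (top) and Car14 (bottom) in bins of 60 micrometres at E15.5 and 25 micrometres at E9.5, as log10 of CPM, with bins under 200 panel counts left grey and axes in micrometres from the section's edge. Car2 fills 1 area of the E15.5 section, and Car14 is spread over the E9.5 sections but near the floor of the scale in most of the E15.5 section.

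In E9.5 section 2 a smaller area of 130 cells, 195 by 192 micrometres, held 308 Car2 counts (24.3% of the section's) at 59517 CPM (53055 to 66549). None of its cells lay in a low-Gnas area, and its cells were shallow, with a median of 23 panel counts. The rest of section 2 had 930 CPM (872 to 990), and the cells outside the E15.5 area had 868. These values follow unlike cuts. An area is drawn at 5 times its own section's level, which was 6386 CPM at E15.5 and 1223 in section 2. The cells outside the E15.5 area still include patches, described below, at up to 26819 CPM. E9.5 section 1 had no such area. Without the areas of both stages, drawn at these unlike cuts, the Car2 difference was 0.07 on the log2 scale.

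**Figure D3:**
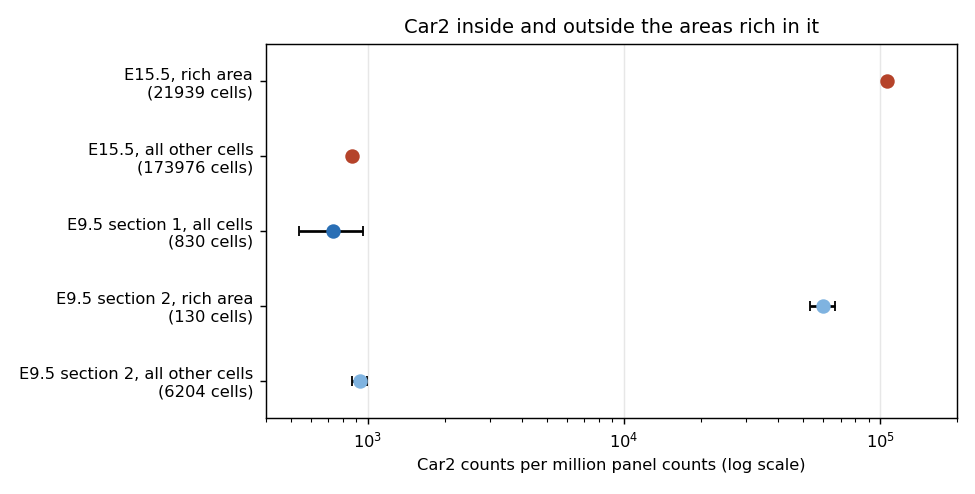
Car2 CPM (log axis) inside and outside the areas rich in Car2, with 95% Poisson intervals and the number of cells. Outside the areas, and over all of E9.5 section 1, levels lie between 729 and 930 CPM. Each area is drawn at 5 times its own section's level, so the cuts differ between sections.

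The E15.5 area was led by Stab2, Rgcc, Odc1, Slc38a5 and Rrm2. Beside Car2, the highest folds over the cells elsewhere were those of Stab2, a scavenger receptor of sinusoidal endothelium, at 20.02-fold (interval 18.9 to 21.2), the cell-cycle regulator Rgcc at 19.4-fold, the polyamine enzyme Odc1 at 17.2-fold, the amino acid transporter Slc38a5 at 16.5-fold and the ribonucleotide reductase subunit Rrm2 at 14.3-fold. The phosphatase Ptp4a3 followed at 14.1-fold and the antiproliferative gene Btg2 at 10.6-fold. Bpgm had 8212 CPM inside the area and 2661 outside. Cells with the liver sinusoid markers were 1.45% of cells inside and 0.221% outside. The panel held none of 8 listed hepatocyte genes, so the area is called by its genes. The E9.5 area shared Slc38a5 (27.9-fold) and Ptp4a3 (25.4-fold) with it but was led by Reln, a secreted protein of early neurons and some other cells, at 30.01-fold.

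Inside the E15.5 area Car2 was at 20624 CPM or more in each of 8 marker groups. Endothelial-marker cells had 66391 CPM of Car2 inside and 1357 outside. Macrophage-marker cells had 72449 and 435, mesenchyme-marker cells 20624 and 567, and neuron-marker cells 46274 and 1095. Cells up to 25 micrometres beyond the area had 13164 CPM, cells at 25 to 50 micrometres 2093, and cells at 50 to 100 micrometres 578. Farther out the level was higher again, at 1335 CPM from 100 to 200 micrometres and 1245 from 200 to 500, and 784 beyond that. Counts can cross the drawn cell borders in images of tissue, and how many did so here was not tested.

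Beyond that area a second pass, also set after the maps had been seen, found 20 patches of 5924 cells with 4654 Car2 counts at E15.5. The widest, with 4101 cells at 7746 CPM of Car2, was led by the transcription factor gene Gata5 at 33.2-fold and by Slc38a5 at 12.8-fold and Foxf1 at 8.37-fold. A patch of 245 cells had 26819 CPM. It was led by Pdzk1ip1 at 12.5-fold, the lymphatic factor Prox1 at 11.8-fold and the arterial connexin gene Gja4 at 11.7-fold, with Bpgm at 11.03-fold. A patch of 173 cells at 5852 CPM was led by the radial glia genes Fabp7 at 31.1-fold and Slc1a3 at 19.7-fold, with neuron markers in 93.1% and neural progenitor markers in 84.4% of its cells.

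Car2 and Car14 met in 2 places of the E15.5 section. The first patch, of 209 cells, had 10085 CPM of Car2 and 6553 CPM of Car14 and was led by the thyroid hormone transporter Slco1c1 at 66.6-fold, then Car14 at 34.5-fold, Tmem108 at 29.2-fold and the phospholipid transfer protein gene Pltp at 20.8-fold. Of its cells, 205 also belonged to the largest of the 10 areas rich in Car14, which had 248 cells and 131 Car14 counts. The second patch, of 61 cells, had 9848 CPM of Car2 and 12721 CPM of Car14, with Car14 at 65.5-fold, Slco1c1 at 38.7-fold and Tmem108 at 19.1-fold. None of 6 listed choroid plexus genes and none of 7 of pigment epithelium and retina was in the panel, so these patches are not named. Over the whole section, cells with Car14 did not carry Car2 more often than cells without it. At E15.5, 16.2% of cells with Car14 also had Car2, against 17.1% of cells without Car14. The same shares were 2.82% and 6.16% in E9.5 section 1 and 11.4% and 12.2% in section 2.

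The areas rich in Car14 held little of it at E15.5. The largest had 6292 CPM (5261 to 7467), and 46.0% of its cells carried neural progenitor markers. The 194990 cells outside the 10 areas had 184 CPM of Car14, below 7 blank codes. In E9.5 section 2, 3 areas of 131, 55 and 21 cells had 14029, 11855 and 13199 CPM. Their cells lay in low-Gnas areas by 96.95%, 100% and 100%. The largest was led by the Wnt inhibitor Sfrp2 at 16.5-fold, Slc2a1 at 9.08-fold, Higd1b at 8.60-fold and Notch1 at 6.80-fold. Of its cells 65.7% carried neural progenitor markers, against 57.1% of all kept cells of section 2.

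Low-Gnas areas moved with both genes at E9.5, in opposite directions. Inside them Car14 had 7651 CPM in section 1 and 3808 in section 2, against 3227 and 1546 in the cells outside them. Car2 had 51.0 and 129 CPM inside, below 10 and 9 blank codes, against 1001 and 1554 outside. Without these cells the log2 stage differences were 2.32 for Car2 and -3.60 for Car14, so both kept their direction. The part of the low-Gnas areas in the Car14 level was not tested beyond this.

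At E15.5 the Car2 level was higher in Bpgm cells than in other cells. At E15.5 there were 12017 Bpgm cells with 9227 CPM of Car2, against 6139 in the other cells, a fold of 1.503 (1.48 to 1.53). In E9.5 section 1, 32 Bpgm cells held 1 Car2 count, against 751 CPM in the other cells, a fold of 0.398 (0.00986 to 2.32). In section 2, 457 Bpgm cells had 1109 CPM, against 1238, a fold of 0.896 (0.744 to 1.07). Liver sinusoid-marker cells had the highest Car2 of the groups at E15.5, with 18133 CPM in 702 cells, a fold of 2.86 (2.69 to 3.03) over the other cells. Of them 22.8% were holding cells, against 13.1% of Bpgm cells. That level lay in the Car2 area, where 318 of them had 67758 CPM, but the other cells there had 106456, a fold of 0.64 (0.60 to 0.67). The 384 outside had 385 CPM, against 869 in the other cells outside, a fold of 0.44 (0.26 to 0.70). Liver sinusoid-marker cells were thus below the other cells in each part, and above them only over the section as a whole. Both E9.5 intervals of Bpgm cells include 1, and the difference between the stages was not tested.

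The E15.5 value hides a split, looked for after the maps had been seen. Of the Bpgm cells, 63.3% (7606 cells) also carried neuron markers. Those had 1167 CPM of Car2, against 1142 in neuron-marker cells that were not Bpgm cells. Bpgm cells without neuron markers had 26985 CPM, against 7369 in other cells without neuron markers, a fold of 3.66. The Car2 area held 1792 of the Bpgm cells, 81.8% of them holding Car2, at 123709 CPM. Other cells there had 103949, a fold of 1.19 (1.17 to 1.21). The 10225 Bpgm cells outside the area had 1391, against 824 in the other cells outside, a fold of 1.69 (1.61 to 1.77). Without neuron markers the folds were 1.19 inside and 2.74 outside, both below the 3.66 of the section as a whole. Read from the Car2 side, 10.4% of Car2-holding cells were Bpgm cells and 34.4% had at least 1 Bpgm count at E15.5, against 13.1% and 37.4% in E9.5 section 2. Over all kept cells these shares were 6.13% and 23.2% at E15.5, against 7.22% and 29.4% in section 2.

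**Figure D4:**
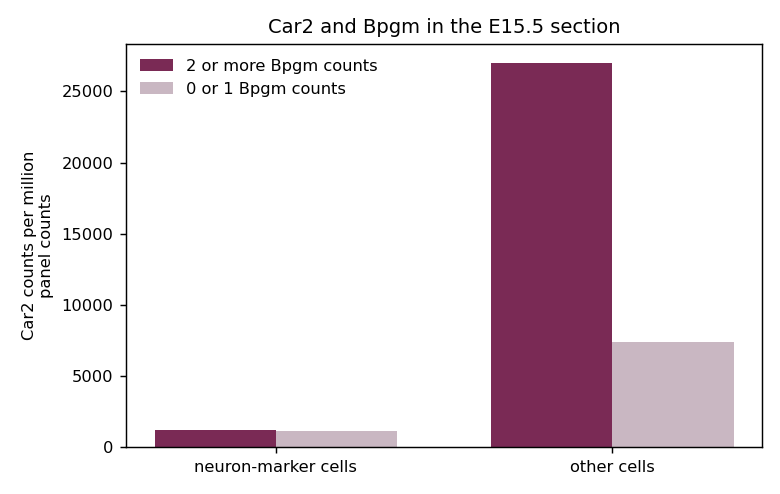
Car2 CPM at E15.5 in cells with 2 or more Bpgm counts and in cells with 0 or 1, split by neuron markers. The bars are 1167 and 1142 in neuron-marker cells and 26985 and 7369 in other cells.

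Car14 was higher in Bpgm cells than in other cells beyond counting error in E9.5 section 2 alone. At E15.5 it stood at 146 CPM in Bpgm cells, below 6 blank codes, against 202 in the other cells. The mean blank code in those Bpgm cells was 138 CPM, so the E15.5 fold compares levels that lie among the blank codes. Car14 stood at 5375 and 2677 in Bpgm cells of E9.5 sections 1 and 2, against 4446 and 1991. The folds were 0.724 (0.634 to 0.824) at E15.5, 1.21 (0.706 to 1.95) in E9.5 section 1 and 1.34 (1.19 to 1.51) in section 2. Without neuron-marker cells the E15.5 fold was 1.51, so its direction rests on them. Without low-Gnas areas the E9.5 folds were 0.684 (0.184 to 1.79) in section 1, on 4 counts, and 1.54 (1.32 to 1.79) in section 2. For Car2 they were 0.549 and 0.888.

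At E9.5 Car14 was higher in neural progenitor-marker cells than in the other cells. A cell entered a marker group with at least 2 markers detected and at least 5% of its counts on the list. The progenitor list was Fabp7, Slc1a3, Vim, Prtg and Crabp1. In E9.5 sections 1 and 2 Vim had 39375 and 38967 CPM, Prtg 48256 and 31110 and Crabp1 10602 and 11598. Fabp7 had only 146 and 235 CPM there, and Slc1a3 598 and 528. The group at E9.5 is therefore called by its list and not named as a cell type, and how far it is neural was not tested. In section 2 the Bpgm cells had more Car14 than this group, at 2677 CPM. Progenitor-marker cells had 6250 CPM of Car14 in E9.5 section 1 (5510 to 7061), against 1832 in the other cells, and 2360 in section 2 (2242 to 2483), against 1621. Without low-Gnas areas the order held, at 5201 CPM against 854 in section 1, a fold of 6.09 (3.75 to 10.4), and 1700 against 1343 in section 2, a fold of 1.27 (1.13 to 1.42). Over all kept cells they held 83.8% and 69.5% of the Car14 counts, in 56.1% and 57.1% of the cells. At E15.5 they had 226 CPM (206 to 248), against 194 in the other cells, with 2 blank codes above. Neuron-marker cells had 80.0 CPM of Car14 at E15.5, against 234 in the other cells, with 12 of 19 blank codes above.

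At E15.5 Car2 was at 1148 CPM in neuron-marker cells and 974 in progenitor-marker cells, below the section level of 6386 that the Car2 area sets. Outside that area neuron-marker cells had 1095 CPM, against 793 in the other cells, a fold of 1.38 (1.34 to 1.43). Progenitor-marker cells had 934 there, against 861, a fold of 1.09 (1.04 to 1.14). In E9.5 section 2 it was 635 in progenitor-marker cells and 4436 in 80 neuron-marker cells, a fold of 3.71 (2.63 to 5.10) over the other cells. That excess rests on Reln, which is 1 of the 5 neuron markers and leads the E9.5 area. With Reln left out of the list, 32 cells were left with 5 Car2 counts, a fold of 0.789 (0.256 to 1.85). E9.5 section 1 had 6 neuron-marker cells with 3 Car2 counts.

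Mesenchyme-marker cells were lower than the other cells in Car2 at E15.5 and in Car14 at E9.5. Car2 had 608 CPM there at E15.5, against 7189 in the other cells, and outside the Car2 area 567, against 913. At E9.5 it had 4 and 8 counts in sections 1 and 2, or 525 and 645 CPM. The folds over the other cells, 0.696 (0.182 to 1.91) and 0.525 (0.226 to 1.04), have intervals that include 1. Car14 had 187 CPM at E15.5, against 199 in the other cells, with 6 blank codes above. It had 0 counts in 33 cells of E9.5 section 1, against 5053 CPM in the other cells. In section 2 it had 1 count in 42 cells, against 2096 CPM in the other cells. In section 1, 3 counts, taken as the floor, would be 394 CPM and the exact interval reaches 484. Heart muscle-marker cells had 219 CPM of Car14 at E15.5, against 1146 in section 2, and mural-marker cells 253, against 1551.

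**Figure D5:**
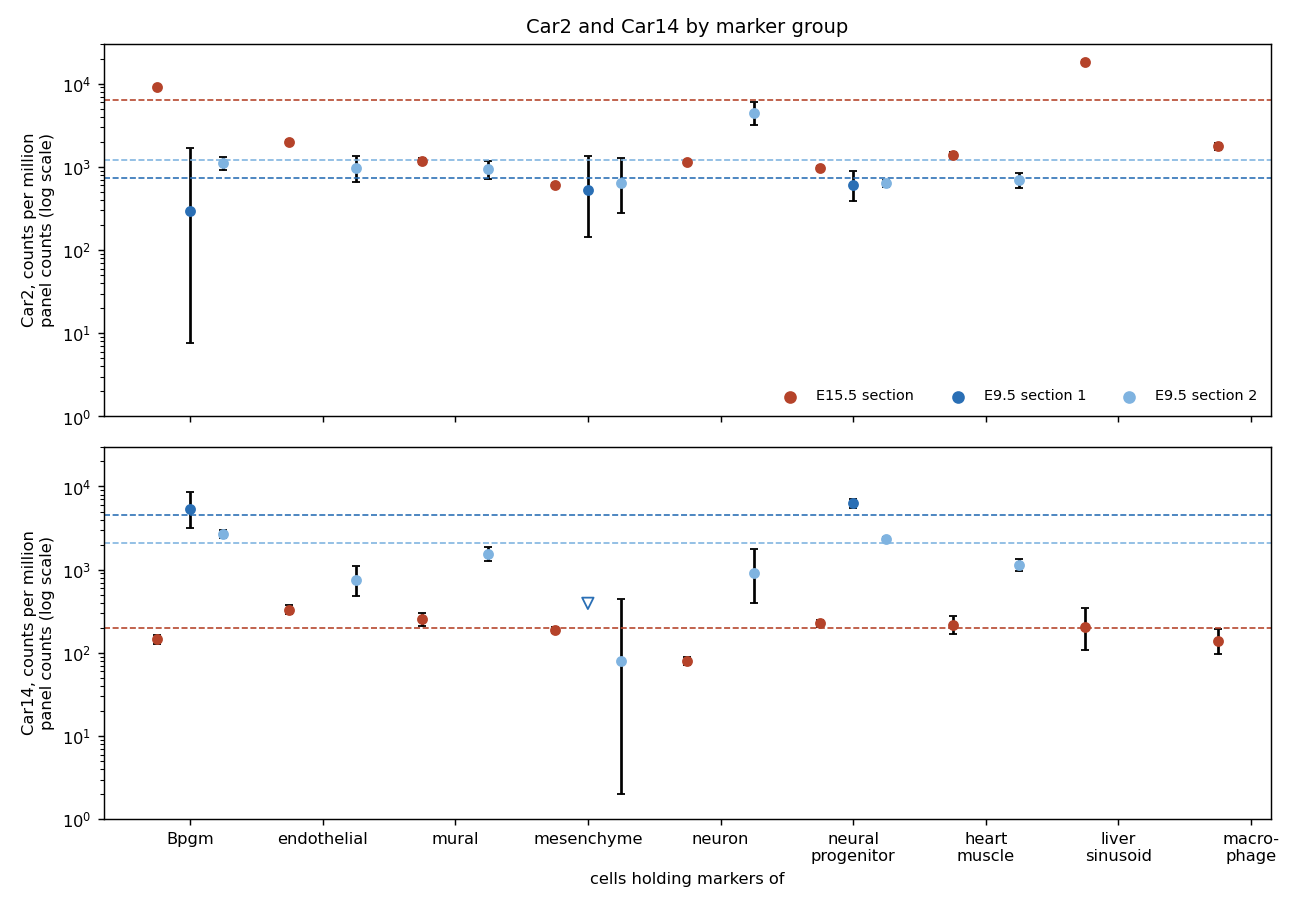
Car2 (top) and Car14 (bottom) in CPM (log axis) by marker group and section, for groups of at least 30 cells. Bars are 95% Poisson intervals, shown where wider than the point, the open triangle marks 0 counts, drawn at the level of 3 counts (394), and dashed lines are the section levels. Progenitor-marker cells have the highest Car14 in E9.5 section 1 (6250), and at E15.5 liver sinusoid-marker cells have the highest Car2 (18133), followed by Bpgm cells (9227). Taken inside or outside the Car2 area alone, liver sinusoid-marker cells lie below the other cells in Car2.

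Endothelial-marker cells, the subject named in the series title, were not called different from other cells in either gene. This comparison was no part of the choice of the pair and was tested on counts summed per section, with section as a block. At E15.5, 5748 endothelial-marker cells had 1985 CPM of Car2, against 6542 in the other cells. In E9.5 section 1, 11 such cells had 0 Car2 counts, against 736 CPM, and in section 2, 170 cells had 966, against 1231. Car2 was lower in endothelial-marker cells beyond counting error at E15.5 alone, at a fold of 0.303 (0.288 to 0.320). The fold in section 2 was 0.785 (0.535 to 1.11), and the 11 cells of section 1 give an interval up to 8.08, so they show no direction. Over the sections the log2 difference was -1.09 ± 0.75 (SE), with an adjusted p of 0.517 in edgeR's quasi-likelihood test. That test shares its estimate of spread over the tested genes, so its p-values do not measure the spread of a single gene between sections. The E15.5 direction rests on the Car2 area, outside which endothelial-marker cells had 1357 CPM, against 850 in the other cells, a fold of 1.60 (1.49 to 1.70). Without areas rich in Car2 the log2 difference over the sections was 0.16, with an adjusted p of 0.924 in the same edgeR test.

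Car14 had 331 CPM in endothelial-marker cells at E15.5, against 192 in the other cells. It had 0 counts in the 11 cells of E9.5 section 1, against 4534 CPM, and 755 in section 2, against 2116. It was lower beyond counting error in section 2 alone, at a fold of 0.357 (0.230 to 0.528), the interval of section 1 reaching 1.27. Over the sections the log2 difference was -0.86 ± 0.78 (SE), with an adjusted p of 0.650 in edgeR's quasi-likelihood test. Of 290 genes tested, 10 were higher (3.45%) and 3 lower (1.03%) in endothelial-marker cells at an adjusted p below 0.05, and neither of the pair was called. Their unadjusted p-values in the same edgeR fit were 0.144 for Car2 and 0.269 for Car14, and DESeq2 gave adjusted p-values of 0.340 and 0.546. The fold of Car14 at E15.5, 1.72, rests on 241 counts, with 2 blank codes above that level.

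Car2-holding cells at E15.5 held larger shares of proliferation gene counts than cells with 0 Car2. Of these holding cells 95.4% lay in the Car2 area, so the comparison is largely of that area with the rest of the section. Over cells with 0 Car2 counts, and with Car2 left out of the totals, 63 of 295 other panel genes (21.4%) were at least 2-fold higher with an interval above 1. Of the proliferation list, 9 of 10 were, with a median fold of 4.43 against 0.805 over all 295 genes. Rrm2 stood at 16.1-fold, the dUTPase gene Dut at 9.79-fold, the mitotic genes Birc5 at 8.92-fold and Aurka at 8.72-fold and the topoisomerase gene Top2a at 5.35-fold. Pimreg, at 1.10-fold, was the member that did not pass. The genes most like Car2 were Slc38a5 at 24.6-fold, Rgcc at 21.1-fold and Odc1 at 19.4-fold, then Rrm2 at 16.1-fold and Ptp4a3 at 15.1-fold. In the 694 holding cells outside the area, 8 of the 10 proliferation genes were at least 2-fold higher, with a median fold of 2.26, beside 50 of 295 genes (16.9%) and a median of 1.14 over all. There Gata5 stood at 21.8-fold (20.1 to 23.6), Slc38a5 at 12.7-fold, Foxf1 at 5.91-fold and Ednra at 4.19-fold. Top2a stood lower at 2.80-fold, Rrm2 at 2.17-fold and Rgcc at 1.65-fold. The widest patch, which was led by Gata5, had 293 of these holding cells. Over the whole section the lowest were Fibin at 0.0710, the neuronal gene Stmn2 at 0.0724 and the tubulin gene Tubb2b at 0.0889. Over cells of the section, Pearson's r with Car2 was 0.61 for Odc1, 0.48 for Btg2 and 0.45 for Rgcc. These cells share 1 section, and depth enters both sides of each correlation.

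Slc38a5 and Ptp4a3 also led the Car2-holding cells of E9.5 section 2. Of these 107 cells, 49 lay in the Car2 area of that section, which Reln and the same genes led. The folds therefore in part describe that area. There, 25 of 295 genes (8.47%) were at least 2-fold higher in the 107 holding cells, led by Slc38a5 at 12.8-fold, Ptp4a3 at 11.3-fold, Reln at 11.1-fold, Ehd3 at 5.75-fold and BC028528 at 4.01-fold. None of the 10 proliferation genes passed, and their median fold was 0.871. Rgcc, at 0.564, and Rrm2, at 0.725, were not higher there. Reln had r = 0.46 with Car2 over the cells of section 2 and Ptp4a3 had r = 0.41. Section 1 had 1 Car2-holding cell and gives no comparison.

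Sfrp2 and Tox2 led the Car14-holding cells at E9.5 by the lower of each gene's folds in the 2 sections, and Slco1c1 and Tmem108 led them at E15.5. Genes with at least 50 counts in the section and 10 in holding cells were ranked. The difference between the stages was not tested. In E9.5 sections 1 and 2, 20 (6.78%) and 12 (4.07%) of 295 genes were at least 2-fold higher than in cells with 0 Car14 counts. In section 2 alone Ptx3, at 4.14-fold, and Cxcr4, at 3.66-fold, were higher than either. The leading genes over both sections were Sfrp2, at 3.58-fold and 3.41-fold, and the transcription regulator gene Tox2, at 4.48-fold and 2.56-fold, followed by Arl4a, Rrm2 and the amino acid transporter Slc7a1 at 1.97-fold to 3.36-fold. Without low-Gnas areas, Sfrp2 stood at 4.15-fold and 3.33-fold in the 9 and 74 holding cells left in sections 1 and 2, and Tox2 at 4.44-fold and 2.67-fold. The neural adhesion gene Prtg had r = 0.29 and 0.20 with Car14 over the cells of sections 1 and 2. At E15.5 the 31 holding cells had 47 genes (15.9%) at least 2-fold higher, led by Slco1c1 at 25.4-fold, Tmem108 at 13.0-fold, Pltp at 11.1-fold, the Wnt ligand Wnt4 at 11.1-fold and the epithelial gene Spint2 at 9.07-fold. Of these 31 cells, 12 lay in the largest E15.5 area rich in Car14 and 5 in another of 131 cells, both led by Slco1c1 and Tmem108. Only 8 lay outside all such areas, so the folds in part describe the areas. Sfrp2 was at 0.489 and Tox2 at 0.491 in the E15.5 holding cells, and Tmem108 was at 0.259 and 0.489 in Car14-holding cells of the E9.5 sections.

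Holding cells of the pair also differed in depth, stain and company. Car2-holding cells had a median of 52 counts at E15.5, against 88 in cells with 0 Car2, and 36 in E9.5 section 2, against 125. Their DAPI intensity per volume, a measure of DNA stain, was 2.01 times that of cells with 0 Car2 at E15.5 and 0.559 times in section 2. Car14-holding cells were deeper than cells with 0 Car14 in every section, with medians of 175 counts against 83 at E15.5, 128 against 53 in E9.5 section 1 and 245 against 111 in section 2. A deeper cell reaches 3 counts of a thinly spread gene more easily, so this difference is in part set by the definition of a holding cell. The folds of other genes in holding cells are not corrected for it. Of the 20 nearest neighbours of a Car2-holding cell, 66.1% held Car2 at E15.5, against 7.76% of all cells, and 21.1% did in section 2, against 1.69%. For Car14 the neighbours held it at 2.74% at E15.5, against 0.0158% of all cells, and at 8.60% and 8.53% in E9.5 sections 1 and 2, against 3.01% and 2.26%.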

How the data were processed

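Car2, Car14 and all lists were chosen with earlier results of these data known. Per the labels, probes for 296 genes were imaged, segmented and decoded on the Vizgen MERSCOPE platform. The authors deposited whole-number counts per cell for these genes and 19 blank codes. A second deposited table gives, per the file headers, each cell's centre and volume and its summed DAPI and PolyT intensity. Positions carry no unit in the headers and are read as micrometres. How cells were outlined and codes called is not stated in the sources used here, and the submitters' processing notes name Scanpy and Seurat without a role.

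Levels (CPM) are counts per 1000000 panel counts, summed over kept cells, with blank codes left out of the totals. Cells are not replicates, so stage was compared by size over sections, at least 2-fold the same way against both E9.5 sections, values under 3 counts being set to 3. Intervals are exact Poisson or Clopper-Pearson at 95% and cover counting error only. Endothelial-marker cells (Pecam1, Cdh5, Kdr, Cldn5, Emcn and Etv2) were tested with edgeR 4.0.16 (TMM, section as a block, summed count of at least 30, 2 residual degrees of freedom, Benjamini-Hochberg adjustment) over genes outside that list, after the script was tested on simulated data. DESeq2 1.42.0 was an alternative. Named genes, among those with at least 50 counts in a section and 10 in holding cells, were the 5 highest and 3 lowest folds in holding cells at E15.5, the 5 highest at E9.5 by the lower fold of the 2 sections (section 2 alone for Car2) and the 3 highest r per section. Lists were compared by counts. Areas (DBSCAN at 60 micrometres, at least 20 cells and 10 counts), patches, distances and the splits by neuron markers and Reln were chosen after seeing the data. No doublet caller was run, since segmentation sets what counts as a cell.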

Additional observations from a re-analysis of the deposited data

Results flagged for a closer look

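The folds of 4 comparisons lay on opposite sides of 1 at the 2 stages, for groups of at least 10 cells in each section. None of these differences between stages was tested. Car2 in Bpgm cells over other cells was 1.503 at E15.5, against 0.3975 and 0.8957 in E9.5 sections 1 and 2. Car14 in Bpgm cells was 0.7243 at E15.5, against 1.209 and 1.344, and without low-Gnas areas section 1 was at 0.6842, below 1 as well. The E15.5 level there, 146 CPM, was near the mean blank code of 138 in the same cells, and the section 1 interval includes 1. Car14 in endothelial-marker cells was 1.722 at E15.5, against 0 and 0.3568, where the value of 0 comes from 11 cells with 0 counts and an interval up to 1.27. Car14 in mural-marker cells, which carry genes of the vessel wall, was 1.293 at E15.5, against 0.4421 and 0.7355, where section 1 had 2 Car14 counts in 21 cells.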

How the results depend on the processing

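The direction of both stage differences held under the 10 other settings that left the areas rich in Car2 in. Leaving out E9.5 replicates in turn gave 2.385 to 3.131 (log2) for Car2 and -4.509 to -3.393 for Car14. Subtracting the mean blank code moved Car14 to -6.369, by construction, since its E15.5 level is near that of the blank codes. In 2 alternatives added after seeing the data, Car2 was -0.1685 without the E15.5 area rich in it and 0.06621 without such areas at both stages. Both are smaller in size than 0.5272, the SD of the Car2 difference over the E9.5 sections, so no direction is read from them. The areas were drawn on Car2, so leaving them out lowers its level by construction. Their cut, 5 times each section's own level, also differed between the sections. Genes lower by size, 46 in the main count, were 24 under upper-quartile scaling, 74 with blank subtraction, 70 at 1.5-fold and 21 at 3-fold. Genes higher, 47 in the main count, were 30 at 3-fold. Leaving out E9.5 replicates in turn gave 68 to 75 higher and 69 to 74 lower genes, fewer sections having to show the fold. Upper-quartile scaling gave 64 higher genes and moved the median gene to 0.12 on the log2 scale. Both Car2 and Car14 kept their direction there.

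Shares of holding cells follow the count asked for. At 1, 2 and 5 counts and thinned to 50 counts they were, for Car2, 17.11, 9.839, 5.215 and 9.679% at E15.5, 5.301, 0.4819, 0 and 3.239% in E9.5 section 1 and 11.98, 4.089, 0.5684 and 3.253% in section 2. For Car14 they were 2.018, 0.09188, 0.003573 and 0.9985% at E15.5, 25.66, 7.711, 0.241 and 21.26% in section 1 and 23.33, 6.899, 0.3473 and 10.27% in section 2.

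The fold in Bpgm cells at E15.5 was 1.581 for Car2 and 0.869 for Car14 at 1 Bpgm count, and 1.464 for Car2 at 3. Without neuron-marker cells (added after seeing the data) it was 3.662 for Car2 and 1.511 for Car14, which turned the direction of Car14. At 3 Bpgm counts, Car2 was 0 in E9.5 section 1 and 1.209 in section 2, and Car14 was 2.331 in section 1, on 6 and 105 Bpgm cells in sections 1 and 2. Without low-Gnas areas (added after seeing the data), Car14 was 0.6842 in E9.5 section 1, on the other side of 1 from 1.209 with an interval that includes 1 both times, and 1.542 in section 2. The cause of these changes was not tested.

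Neither gene passed an adjusted p of 0.05 in endothelial-marker cells under any of 12 alternatives, where edgeR's and DESeq2's adjusted p ran between 0.340 and 0.992 for Car2 and between 0.546 and 0.981 for Car14. With no replicate block the log2 differences were -1.17 for Car2 and -2.17 for Car14. Without areas rich in Car2 (added after seeing the data) Car2 was at 0.1638, which turned its direction. Leaving out sections in turn gave -1.90 to -0.17 for Car2 and -1.61 to -0.19 for Car14. DESeq2 called 26 genes higher and 13 lower over the panel, against 10 and 3 in edgeR. No paired analysis was possible between the stages because their sections come from different embryos. Depth limits Car2 in E9.5 section 1, with 50 counts, and Car14 at E15.5, which lies among the blank codes.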
